A study of Homo sapiens with 4 samples.

Results

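The genes described here are 8 liver and endoderm transcription factors, FOXA1, FOXA2, FOXA3, ONECUT1, ONECUT2, PROX1, GATA4 and GATA6, chosen by name out of the 57768 genes measured. Each symbol matched 1 gene identifier in the files. The RNA-seq libraries came from cells labelled HepG2, an established human liver cancer cell line known to secrete many of the plasma proteins that hepatocytes make. The series compared 2 libraries of WT cells with 2 libraries of C/EBPβ enh-/- cells, called enhancer-deleted from here on, in which CRISPR/Cas9 had removed the C/EBPβ enhancer from both alleles. Both genotypes were grown in the same medium with serum, and no further treatment is named. Whether the enhancer-deleted cells were 1 clone, and whether the 2 libraries of a genotype came from separate cultures, is not given in the sources used here, so the p-values measure only the spread between these libraries, which may be technical. The labels give total RNA as the measured molecule, although their extraction text describes chromatin immunoprecipitation. The values are FPKM, the fragments of a gene per kilobase of transcript, scaled to the size of the library.

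FOXA proteins are forkhead factors that bind closed chromatin and open liver enhancers for other factors. ONECUT1 and ONECUT2 act with them in the specification of hepatocytes and bile duct cells, PROX1 is needed for hepatoblasts to migrate out of the liver bud, and GATA4 and GATA6 act from the first endoderm onwards. In the adult liver this group works in a circuit with HNF4A and C/EBPα, which together switch on plasma protein and metabolic genes.

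Of the 8 factors, 3 reached an FPKM of 1 in at least 1 library. FOXA1 did so in all 4 libraries, GATA6 in both WT libraries and 1 enhancer-deleted library, and ONECUT2 in the enhancer-deleted libraries alone. The other 5 factors stayed below 0.1 in all 4 libraries. Of these, FOXA2 and PROX1 were listed at 0 throughout. For comparison, the median FPKM of the 19403 protein-coding genes was 2.0 to 2.45 per library, and 56.2% of them had a mean of 1 or more. Summed over the 8 factors, FPKM came to 4.06 and 3.73 in the WT libraries, while the enhancer-deleted libraries had 4.44 and 3.21.

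Read counts were not used here, and the depth could only be read approximately from the spacing of the lowest values. In WT cells this gave about 40000000 and 44800000 fragments, against about 22100000 and 48400000 in the enhancer-deleted libraries. The 5 highest genes held 18.8% to 22.3% of the summed FPKM in WT cells and 27.4% to 35.1% in enhancer-deleted cells. A value of 0 in these files may not always mean that a gene had no fragments, which was not tested. PARP2, a DNA repair gene used by most cells, had 0 in each WT library but 6.60 and 6.31 after the deletion. CEBPB, which encodes C/EBPβ, had an FPKM of 30.6 and 19.2 in WT cells and of 12.4 and 11.8 in enhancer-deleted cells. Both enhancer-deleted values lay below both WT values, and the log2 fold change was −0.94 (Benjamini-Hochberg adjusted p = 0.125, limma) and missed the threshold of 0.05. Leaving out 1 library, it ranged from −1.27 without WT library 2 to −0.62 without WT library 1, and did not pass. In bulk RNA, fewer cells that express a gene and less RNA per cell cannot be told apart.

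FOXA1 (ENSG00000129514.4, GRCh37 chromosome 14 from 38058757 to 38065264, minus strand) was the highest of the 8 factors in WT cells. It had an FPKM of 2.09 in WT library 1 and 1.74 in WT library 2, while enhancer-deleted libraries 1 and 2 had 1.34 and 1.23. Both enhancer-deleted values lay below both WT values. WT cells had a mean of 1.92 ± 0.248 (SD, n = 2) and enhancer-deleted cells one of 1.29 ± 0.0777 (SD, n = 2). In each library FOXA1 lay above 46.2% to 48.7% of the protein-coding genes, close to the middle of that ranking. It rested on about 294 and 274 fragments in WT cells, and on about 104 and 209 in enhancer-deleted cells.

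The other 2 FOXA genes were near or at 0. FOXA3 (ENSG00000170608.2, chromosome 19 from 46367247 to 46377055, plus strand), which remains active in the adult hepatocyte, had an FPKM of 0.0126 and 0.0226 in WT cells and of 0.0229 and 0.0105 in enhancer-deleted cells. These values correspond to about 1 fragment in 3 of the libraries and to about 2 in WT library 2, so a difference between genotypes was not detectable at this depth. FOXA2 (ENSG00000125798.10, chromosome 20 from 22561636 to 22566093, minus strand), which acts with FOXA1 in the competence of the foregut to form liver, was listed at 0 in all 4 libraries. At the approximate depths, 3 fragments of FOXA2 would have given an FPKM of 0.0244 to 0.0535. In total, 1848 protein-coding genes (9.52%) were listed at 0 in all 4 libraries.

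Among all 52 protein-coding forkhead genes, 20 had a mean FPKM of at least 1, 8 were listed at 0 in all 4 libraries, and FOXA1 ranked 20th. The 3 highest were FOXM1, a regulator of the cell division programme, followed by FOXN3 and FOXK2. FOXM1 had an FPKM of 18.7 and 18.7 in WT cells and of 23.5 and 17.4 in enhancer-deleted cells. FOXN3 had 20.5 and 19.8 in WT cells and 10.7 and 15.5 in enhancer-deleted cells. FOXK2 had 16.7 and 16.0 in WT cells and 10.3 and 11.5 in enhancer-deleted cells. FOXN3 and FOXK2 were lower without overlap, as 37.5% of all tested genes were. Within a library, which no scaling of whole libraries affects, FOXM1 was 8.92 and 10.7 times as high as FOXA1 in WT cells and 17.5 and 14.1 times as high in enhancer-deleted cells. Of the 20 forkhead genes tested, 0 passed the threshold in limma with Benjamini-Hochberg adjustment. Over all tested genes, 1.21% were lower and 0.248% higher at that threshold, so this count says little about the family.

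ONECUT1 and ONECUT2 are paralogs with closely related DNA-binding domains, and their levels in these cells were far apart. The bases just before their start sites are shown because a CpG-rich promoter was present in both, at the gene near 0 as at the gene that was measured. They are the 250 bases before the RefSeq start, 5′ to 3′ on the strand of the gene, with build GRCh38.p14. Capitals mark GGGCGG, the GC box, and CCAAT, the CCAAT box, on either strand.
ONECUT1 (chr15:52790337-52790586, minus strand): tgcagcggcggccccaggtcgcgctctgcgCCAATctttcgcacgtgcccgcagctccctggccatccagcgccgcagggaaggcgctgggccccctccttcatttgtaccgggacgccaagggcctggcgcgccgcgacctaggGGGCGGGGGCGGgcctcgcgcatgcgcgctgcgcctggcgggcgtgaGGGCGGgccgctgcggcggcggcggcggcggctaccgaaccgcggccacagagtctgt
ONECUT2 (chr18:57435124-57435373, plus strand): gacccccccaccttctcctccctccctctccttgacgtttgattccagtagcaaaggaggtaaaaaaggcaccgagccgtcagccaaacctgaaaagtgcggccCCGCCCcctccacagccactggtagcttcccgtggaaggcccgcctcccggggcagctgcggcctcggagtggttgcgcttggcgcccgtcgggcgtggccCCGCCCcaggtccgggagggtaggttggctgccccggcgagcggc
The ONECUT1 sequence held 37 CpG and that of ONECUT2 held 20, against a median of 11 over all 35116 RefSeq promoters. ONECUT1 had 3 GC boxes and 1 CCAAT box, and ONECUT2 had 2 GC boxes. A GC box occurred in 42.6% of all promoters in the same window and a CCAAT box in 32.0%. TTGCNNAA, a short form of the C/EBP motif that is found in 9.05% of promoters, was absent from both windows on either strand. Windows were also available for FOXA1, FOXA3 and GATA6, which held 26, 28 and 16 CpG and no TTGCNNAA.

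ONECUT2 (ENSG00000119547.5, chromosome 18 from 55102606 to 55158530, plus strand) had an FPKM of 0.830 and 0.913 in WT cells and of 1.89 and 1.33 in enhancer-deleted cells. Both enhancer-deleted values lay above both WT values, the opposite order to FOXA1. WT cells had a mean of 0.871 ± 0.0589 (SD, n = 2) and enhancer-deleted cells one of 1.61 ± 0.399 (SD, n = 2). Its longest transcript has 16433 nt, so these low levels rested on about 545 and 673 fragments in WT cells and on about 686 and 1055 in enhancer-deleted cells. ONECUT1 (ENSG00000169856.7, chromosome 15 from 53047250 to 53083275, minus strand), the family member typical of hepatocytes, had an FPKM of 0 and 0.000616 in WT cells and of 0.00125 and 0.0129 in enhancer-deleted cells. The highest of these corresponds to about 2.72 fragments and the others to less than 1, so no fold is given. ONECUT3 was at 0.00146 in enhancer-deleted library 1 and listed at 0 elsewhere. CUX1, a broadly expressed gene of the same cut homeobox class, was much higher, with 28.4 and 17.3 in WT cells and 19.5 and 19.6 in enhancer-deleted cells.

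GATA6 (ENSG00000141448.4, chromosome 18 from 19749550 to 19782491, plus strand) had an FPKM of 1.12 and 1.05 in WT cells and of 1.19 and 0.629 in enhancer-deleted cells. The genotypes overlapped, since enhancer-deleted library 1 was the highest of the 4 and library 2 the lowest. WT cells had a mean of 1.09 ± 0.0473 (SD, n = 2) and enhancer-deleted cells one of 0.909 ± 0.396 (SD, n = 2). GATA4 (ENSG00000136574.13, chromosome 8 from 11534468 to 11617511, plus strand), its partner in liver bud growth, was at 0.000279 in WT library 1, at 0.000456 in enhancer-deleted library 2 and listed at 0 in the other 2 libraries. Each of these values corresponds to less than 1 fragment.

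The main GATA factor of these cells was GATA2, known from blood stem cells and endothelium, with an FPKM of 12.9 and 9.63 in WT cells and of 13.2 and 12.6 in enhancer-deleted cells. It was 9.13 to 20.1 times as high as GATA6 within a library. GATA1, GATA3 and GATA5 were at 0.148 or less in every library, and GATA5 was listed at 0 in both WT libraries. TRPS1, an atypical GATA protein, had an FPKM of 7.01 to 10.1. The levels of GATA2 and TRPS1 overlapped between genotypes.

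PROX1 (ENSG00000117707.11, chromosome 1 from 214156524 to 214214853, plus strand) was listed at 0 in all 4 libraries. A count of 3 fragments of it would have given an FPKM of 0.00732 to 0.0160 at the approximate depths. Its only paralog, PROX2, had an FPKM of 0.236 and 0.354 in WT cells and of 0.234 and 0.608 in enhancer-deleted cells, with overlap between genotypes. Over the 13 family relatives listed for the 8 factors, 6 were tested, and none passed the threshold in limma with Benjamini-Hochberg adjustment (1 lower and 0 higher at an unadjusted p under 0.05, beside 16.9% and 3.86% of all tested genes).

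**Figure D1:**
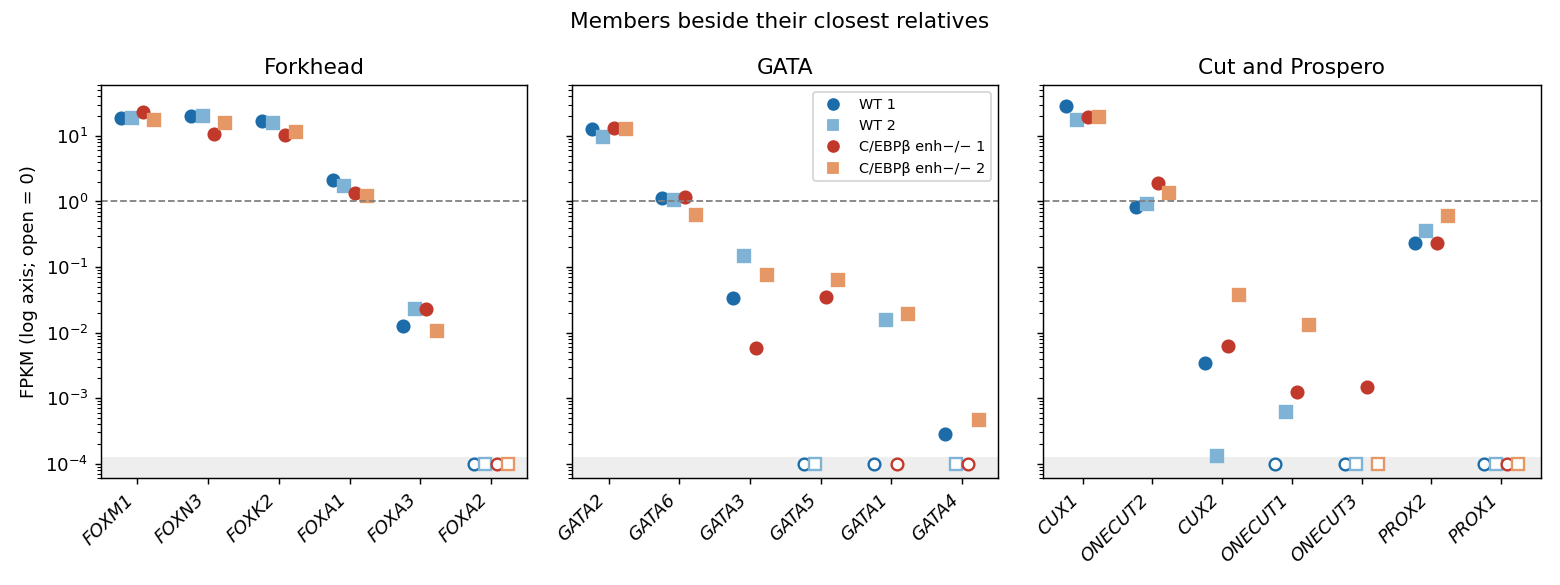
FPKM on a log axis of the members and their relatives in the forkhead, GATA, and cut and Prospero families, with 1 point per library and open symbols for values of 0. FOXM1, GATA2 and CUX1 lie at 9.63 or more in every library, above the FOXA, GATA6 and ONECUT2 points.

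Ordered by level in WT cells, FOXA1 came first, then GATA6 and ONECUT2 next, with no overlap between neighbours, and FOXA3 followed far below. In enhancer-deleted cells, ONECUT2, FOXA1 and GATA6 came in that order by their means. There ONECUT2 and FOXA1 overlapped, 1.33 being the lowest value of ONECUT2 and 1.34 the highest of FOXA1, and FOXA1 and GATA6 nearly touched, at 1.23 and 1.19. Within a library, the ratio of FOXA1 to ONECUT2 was 2.53 and 1.91 in WT cells, and 0.710 and 0.930 in enhancer-deleted cells. This ratio does not depend on how libraries were scaled, but it was chosen after the values were seen. With 2 libraries per genotype, 0.333 is the smallest two-sided p that an exact permutation test allows, so none is given for this ratio.

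The comparison between genotypes asks whether the factors differed once the C/EBPβ enhancer was lost. FOXA1 and ONECUT2 had a mean FPKM of at least 1 and entered the test over 12491 genes, and neither passed the threshold. ONECUT2 reached this minimum only through the enhancer-deleted libraries, with a mean of 0.871 in WT cells and 1.61 in enhancer-deleted cells. Its place in the test, and any median over the tested factors, therefore rest on the group where it was higher. The log2 fold change of FOXA1 on the log2(FPKM + 1) scale was −0.35 (standard error 0.26, 95% interval −0.97 to 0.27, Benjamini-Hochberg adjusted p = 0.484, limma). The log2 fold change of ONECUT2 was 0.47 (standard error 0.28, 95% interval −0.19 to 1.14, Benjamini-Hochberg adjusted p = 0.381, limma). This scale understates the change of low genes, and the ratio of mean FPKM between enhancer-deleted and WT cells was 0.671 for FOXA1 and 1.85 for ONECUT2. GATA6, with a mean of 0.998, missed the minimum, and with a minimum of 0.5 its log2 fold change was −0.14 (95% interval −0.75 to 0.46, Benjamini-Hochberg adjusted p = 0.785, limma). Each interval includes 0 and reaches furthest to 1 side, down for FOXA1 and GATA6 and up for ONECUT2. Sizeable changes to that side remain possible, so the factors cannot be said to be the same in both genotypes.

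Over all 12491 genes, 151 (1.21%) were lower and 31 (0.248%) higher at the threshold, and 0 of the 2 tested factors were called in either direction. At an unadjusted p under 0.05, limma gave 2114 genes lower (16.9%) and 482 higher (3.86%), and again 0 of the 2 factors. Genotypes without overlap were common in this table. The enhancer-deleted values were both under the WT values in 4682 genes (37.5%) and both over them in 1886 (15.1%), so that the separation of FOXA1 or of ONECUT2 is not unusual here. The median log2 fold change was −0.14 over all tested genes and 0.06 over FOXA1 and ONECUT2, a value that leaving out 1 library moved from −0.04 (without enhancer-deleted library 1) to 0.16 (without enhancer-deleted library 2). Set pair by pair, enhancer-deleted minus WT differed by −0.47 to −0.23 for FOXA1, against −0.17 between the WT libraries (library 2 minus library 1). For ONECUT2 the pairs differed by 0.28 to 0.66, against −0.31 between the enhancer-deleted libraries, so the smallest difference between genotypes was within the spread of that genotype.

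The genes next to the factors tell which loci gave signal at all. SYMPK, an RNA 3′-end processing gene 795 bp from FOXA3, had an FPKM of 7.90 to 13.6, and IRF2BP1, 9811 bp away, had 15.4 to 18.1, whereas FOXA3 between them stayed near 0. NEIL2, a DNA repair gene 9637 bp from GATA4, had an FPKM of 3.62 to 5.75. Beside FOXA2, the long non-coding RNAs LINC00261 and LNCNEF were both listed at 0 in all 4 libraries, as FOXA2 was. PROX1-AS1, which overlaps PROX1 on the opposite strand, was at 0.000737 or less. GATA6-AS1, antisense to GATA6, had an FPKM of 0.0116 to 0.109, well under that of GATA6. TTC6 overlaps FOXA1 on the opposite strand and had an FPKM of 0.614 and 0.793 in WT cells and of 0.217 and 0.630 in enhancer-deleted cells. Whether the counting used strand is not given in the sources used here, so reads of FOXA1 and TTC6, or of GATA6 and GATA6-AS1, may not have been told apart. In all, 19 annotated genes overlapped a factor or lay within 10 kb, 15 of them had a value, and 8 of these were listed at 0 throughout.

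Other factors of the liver circuit were at unlike levels. HNF4A, which keeps the hepatocyte programme on, had an FPKM of 0.0218 and 0.0409 in WT cells and of 0 and 0.00594 in enhancer-deleted cells. CEBPA was uneven, at 0.524 and 0.000130 in WT cells and at 1.55 and 1.63 in enhancer-deleted cells. Its mean was below the minimum for the test, and with a minimum of 0.5 its log2 fold change was 1.07 (95% interval 0.40 to 1.74, Benjamini-Hochberg adjusted p = 0.116, limma), which missed the threshold. CEBPA reached that lower minimum only through the enhancer-deleted libraries, with a mean of 0.262 in WT cells and 1.59 in enhancer-deleted cells. Its interval is therefore no support for a difference. HHEX, a homeobox factor of the liver bud, was at 2.22 and 2.20 in WT cells and at 1.51 and 1.21 in enhancer-deleted cells. NR1I3, a nuclear receptor that switches on drug metabolism in hepatocytes, was at 3.45 and 2.42 in WT cells and at 2.14 and 1.79 in enhancer-deleted cells, above FOXA1 in every library.

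Of 22 other liver transcription factors listed, 21 were matched, 11 had an FPKM of at least 1 in all 4 libraries and 8 stayed below 1 in all. The highest were genes that many cell types use. XBP1, a factor of the secretory pathway, had an FPKM of 100.3 and 80.5 in WT cells and of 64.6 and 60.6 in enhancer-deleted cells. By mean over the 4 libraries, the other highest were CEBPB and NR2F1, an orphan nuclear receptor. NR2F1 was at 12.4 and 13.8 in WT cells and at 5.10 and 10.9 in enhancer-deleted cells. Its mean of 10.5 was close to that of CEBPD at 9.57. Of the 12 tested, none passed the threshold in limma with Benjamini-Hochberg adjustment. At an unadjusted p under 0.05, 3 were lower and 1 higher, beside 16.9% and 3.86% of all tested genes. Their median log2 fold change was −0.42, beside −0.14 over all tested genes, and 7 of the 12 were lower and 2 higher without overlap, beside 37.5% and 15.1% of all tested genes.

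Of 14 endoderm and gut transcription factors listed, 13 were matched, 1 had an FPKM of at least 1 in all 4 libraries and 4 were listed at 0 in all. FOXF1, a forkhead factor of the gut mesenchyme, was at 4.60 and 6.51 in WT cells and at 2.48 and 5.41 in enhancer-deleted cells, with overlap. TBX1, a factor of the pharyngeal pouches, had an FPKM of 7.95 and 4.49 in WT cells and of 0.824 and 1.84 in enhancer-deleted cells (log2 fold change −1.62, Benjamini-Hochberg adjusted p = 0.0738, limma). NKX2-1, a lung and thyroid factor, was at 1.98 and 2.68 in WT cells and at 0.417 and 0.537 in enhancer-deleted cells (log2 fold change −1.17, Benjamini-Hochberg adjusted p = 0.0907, limma). Both were lower without overlap, as 37.5% of all tested genes were, and missed the threshold, with 2 of the 3 tested genes of this list lower and 0 higher at an unadjusted p under 0.05, where 16.9% of all tested genes were lower. The median log2 fold change of the 3 was −1.17, beside −0.14 over all tested genes.

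The products that these factors drive in hepatocytes were mostly at or near 0, which goes against the liver label. Of 26 hepatocyte genes listed, 25 were matched, and 22 of them stayed below an FPKM of 1 in all 4 libraries, 17 of them below 0.1. ALB, the gene of serum albumin, was at 0.0553 in WT library 1, at 0.000783 in enhancer-deleted library 2 and listed at 0 in the other 2 libraries. AFP, the fetal plasma protein and a common mark of liver cancer cells, was listed at 0 in 3 libraries and at 0.0605 in enhancer-deleted library 2. PCK1, which encodes a gluconeogenic enzyme also used by the kidney, was the exception with an FPKM of 6.21 and 17.1 in WT cells and of 14.9 and 13.5 in enhancer-deleted cells. VTN, the gene of vitronectin, was at 0.800 to 1.44. GPC3, an oncofetal surface proteoglycan of liver cancer, was at 0.000411 and 0.0292 in WT cells and at 0.763 and 2.12 in enhancer-deleted cells. With the minimum of 0.5, its log2 fold change was 1.21 (95% interval 0.45 to 1.97, Benjamini-Hochberg adjusted p = 0.117, limma), which also missed the threshold. GPC3 too reached that minimum only through the enhancer-deleted libraries, with a mean of 0.0148 in WT cells and 1.44 in enhancer-deleted cells. Its interval is likewise no support for a difference. PCK1 and VTN were tested, and neither passed the threshold in limma with Benjamini-Hochberg adjustment or an unadjusted p of 0.05. At that unadjusted p, 16.9% of all tested genes were lower and 3.86% higher. The median log2 fold change of PCK1 and VTN was 0.36, beside −0.14 over all tested genes. It is not stable, since leaving out 1 library moved PCK1 from −0.25 to 1.08.

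Hence the values place the hepatic state of these cells, before and after the enhancer deletion, at low FOXA1, ONECUT2 and GATA6 with FOXA2, FOXA3, ONECUT1, PROX1, GATA4, HNF4A, ALB and AFP at or near 0 in both genotypes. A listed 0, as for FOXA2 and PROX1, cannot be taken by itself as absence in these files. CEBPA, uneven between the WT libraries, and GPC3 were higher in both enhancer-deleted libraries than in either WT library, with neither past the threshold. HNF4A, near 0 throughout, was lower in both. Of the 12 tested liver transcription factors, 7 were lower and 2 higher without overlap, beside 37.5% and 15.1% of all tested genes.

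Markers of other cell types were looked up in the same way, and their part in the levels of the 8 factors was not tested. The 14 mesenchymal genes had a summed FPKM of 320 and 394 in WT cells and of 272 and 229 in enhancer-deleted cells, most of it from VIM, the intermediate filament of mesenchymal cells, at 138 to 308. Of these genes 9 were tested and none passed the threshold in limma with Benjamini-Hochberg adjustment (3 lower and 1 higher at an unadjusted p under 0.05, beside 16.9% and 3.86% of all tested genes). Of 10 simple epithelial and biliary genes, 9 were matched and 3 were tested. KRT8 and KRT18, the keratin pair of simple epithelia, fell without overlap, so that 2 of the 3 tested were called, beside 1.21% of all tested genes. All 3 were lower without overlap and at an unadjusted p under 0.05, beside 37.5% and 16.9% of all tested genes. KRT8 had an FPKM of 231 and 335 in WT cells and of 82.6 and 90.0 in enhancer-deleted cells (log2 fold change −1.68, Benjamini-Hochberg adjusted p = 0.0325, limma). KRT18 had an FPKM of 416 and 461 in WT cells and of 155 and 148 in enhancer-deleted cells (log2 fold change −1.52, Benjamini-Hochberg adjusted p = 0.0243, limma). Without any 1 of the libraries, neither passed, with adjusted p from limma of 0.102 to 0.215 for KRT8 and of 0.101 to 0.209 for KRT18. KRT7, a keratin of bile ducts, had 636 and 429 in WT cells and 95.4 and 220 in enhancer-deleted cells (log2 fold change −1.84, Benjamini-Hochberg adjusted p = 0.0816, limma). CDH1 and EPCAM, the defining adhesion molecules of epithelia, were at 0.00811 or less in every library.

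The remaining lists were mostly low. All 7 blood genes and all 5 kidney genes stayed below an FPKM of 1, and the sums of the 9 matched endothelial genes were 2.01 to 2.90. Of 7 squamous and basal epithelial genes, KRT17 was at 190 to 459 and SFN at 29.6 to 49.0, and the other 5 stayed below 1 in all 4 libraries. Of 5 matched neuronal genes, SNAP25 was at 5.93 to 17.6. Of the endothelial, squamous and neuronal genes 4 were tested in all, and none passed the threshold in limma with Benjamini-Hochberg adjustment or an unadjusted p of 0.05.

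Genes with the pattern most like FOXA1 and ONECUT2 over the 4 libraries were found by the Euclidean distance between log2(FPKM + 1) values, each centred on the mean of its gene. The closest to FOXA1 was SLC2A11, a sugar transporter, at a distance of 0.0200, with an FPKM of 4.40 and 3.72 in WT cells and of 3.02 and 2.83 in enhancer-deleted cells, followed by ENSG00000235999.1 at 0.0334. For ONECUT2 they were FBXL8, which encodes an F-box protein, at 0.0377 and SIPA1L3 at 0.0384. Such patterns were shared by many genes, since 91 genes lay within a distance of 0.1 of FOXA1 and 35 within 0.1 of ONECUT2, while FOXA1 and ONECUT2 lay 0.855 apart.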

How the data were processed

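FPKM values as the authors deposited them were used, and the submitters' processing notes name hg19, TopHat2 2.0.13, Cufflinks and edgeR without saying what each did. FPKM is a share of a library, so very high genes lower the values of all others, and a comparison between genes rests on the transcript lengths used. After pseudoautosomal copies were left out, 57768 of 57815 gene entries remained, and 55535 matched a symbol. Coordinates came from GENCODE release 44 lifted to GRCh37, and promoter sequences from RefSeq.

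The 12491 genes whose FPKM averaged 1 or more were compared as log2(FPKM + 1) with limma 3.58.1 in R 4.3.3 (trend, two-sided, Benjamini-Hochberg adjustment over all tested genes, threshold 0.05), without a replicate block. The paper's text refers to Supplementary Information, not used here, for its RNA-seq analysis, and names an unpaired test on fold changes of gene groups but none per gene. The fit was tested on simulated data. Depth was read from the spacing of low values of genes with a transcript of at least 1000 nt. Only 43.0% to 51.3% of these values were whole fragments within 0.1, so no counts were recovered and fragment numbers are approximate and cover counting error only. Tables were made with pandas 2.3.3 and numpy 2.4.6 and figures with matplotlib 3.10.9, in Python 3.11.15.

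The members and gene lists were chosen with earlier results of these data known. The text names the 8 factors, CEBPB, of each list the genes past the threshold and the 3 highest where they bear on the factors, HNF4A, CEBPA, ALB and AFP, genes within 10 kb of a factor, and the 2 genes most alike to each tested factor. Other relatives of the factors, HHEX, NR1I3, PARP2, CDH1 and EPCAM were named after their values were seen. LHX1, G6PC, CD24, PECAM1 and NEFL were among the listed genes without a match. Some listed genes are not reported by name. The alternatives were other filters, a pseudocount of 0.1, no trend, rescaling, centring, the replicate block, protein-coding genes alone, leaving out each library, and a minimum of 0.5, added after seeing the data.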

Additional observations from a re-analysis of the deposited data

How the results depend on the processing

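Under the 12 alternatives that gave a value, FOXA1 stayed lower (log2 fold change −0.54 to −0.18, adjusted p from limma 0.413 to 0.778) and ONECUT2 higher (0.31 to 0.80, adjusted p from limma 0.212 to 0.807), and neither passed the threshold. Leaving out 1 library gave −0.44 to −0.26 for FOXA1 and 0.31 to 0.63 for ONECUT2. With no filter, FOXA1 had an unadjusted p of 0.044 in limma. The median of FOXA1 and ONECUT2 was 0.235 with each library centred on its median, and −0.04 to 0.16 with 1 library left out. Centring moved the median of all tested genes from −0.14 to 0.03. The counts over all genes moved more. There were 0 genes lower and 0 higher with no filter (2657 and 1107 at an unadjusted p under 0.05), 20 higher with a mean FPKM of at least 5, 61 lower after rescaling, 68 lower after centring, 93 lower with the replicate block, and 457 lower with 60 higher when only protein-coding genes were fitted. With 1 library left out, 9 to 22 were lower and 3 to 20 higher (22 and 3 without WT library 1, 9 and 3 without WT library 2, 15 and 20 without C/EBPβ enh-/- library 1, 20 and 19 without C/EBPβ enh-/- library 2). Leaving out 1 library, CUX1 ranged from −0.52 to 0.16 and PCK1 from −0.25 to 1.08, both turning without WT library 1, and FOXM1 from −0.10 to 0.32, turning without C/EBPβ enh-/- library 1. KRT8 and KRT18 each lost their call in 7 of 13 alternatives, and TBX1, NKX2-1 and KRT7 passed only among protein-coding genes. The cause of these changes was not tested. The shared library numbers were not taken as pairs, since the paper's text names no pairing. Deviations of same-numbered libraries had a correlation across genes of 0.00945, which cannot by itself exclude pairing. The number of libraries limits what can be called, and at the depth of these files FOXA2, FOXA3, ONECUT1, PROX1 and GATA4 cannot be compared between genotypes.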
